A study of Mus musculus with 2 samples.

Results

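The genes described here are 7 transcription factors of the oligodendrocyte lineage, Olig1, Olig2, Sox10, Myrf, Nkx2-2, Nkx6-2 and Zfp488. They were taken from the 21853 protein-coding genes of the GENCODE M21 annotation by a rule that lists names and uses no measured value. The names were chosen with earlier results of these data known. Accessible chromatin was mapped by DNase-seq, in which DNase I cuts DNA that is not wrapped in nucleosomes and the cut ends are sequenced. The tissue came from female B6CASTF1/J mice of 2 months, F1 hybrids between the C57BL/6J and CAST/EiJ strains, and is called a layer of the hippocampus in 1 label and hippocampus in another. There was 1 group with 2 libraries, biological replicates 1 and 2, and no treatment or control group. The replicates share a donor record but differ in their biosample records. Nothing in the labels shows that they are separate animals, so the difference between them may be technical. With n = 2 in 1 group no p-value was computed, and counts are set beside the share over all genes, peaks or regions.

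Oligodendrocytes wrap axons in myelin and arise from dividing precursor cells that persist in the adult brain. Olig2 and Olig1, basic helix-loop-helix factors that bind E-boxes, specify and mature the lineage; Sox10, an HMG-box factor, is expressed throughout it; Myrf, a membrane-bound factor that cleaves itself, switches on myelin genes in maturing cells. The homeodomain factors Nkx2-2 and Nkx6-2 act in ventral neural progenitors and again during oligodendrocyte differentiation, and Zfp488 is a zinc finger protein that promotes that differentiation. In the adult forebrain these genes are known mainly from the oligodendrocyte lineage, a minority of the cells of the hippocampus. In bulk tissue, fewer cells of a type and less accessible chromatin per cell cannot be told apart.

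Each gene was examined in a window of its gene body plus 50 kb on each side. The windows covered 721 kb, with those of Olig1 and Olig2, whose start sites lie 44.3 kb apart on chromosome 16, counted together. Overlapping peaks of the libraries were merged into 78 regions, of which 36 held a peak in both libraries, 37 in replicate 1 only and 5 in replicate 2 only. Of all regions of the genome, 42.0% held a peak in both and 49.6% in replicate 1 only. The sequences below are those on which the results turn. They are the promoter regions shared by both libraries and, for each window, the strongest shared region outside promoters, chosen by mean value. All are from the RefSeq GRCm38.p6 assembly, forward strand of the genome, 5′ to 3′. Capitals mark bases inside a footprint (a short stretch protected from cutting, as listed by the authors) in either library.
Olig1 promoter, chr16:91269561-91269800: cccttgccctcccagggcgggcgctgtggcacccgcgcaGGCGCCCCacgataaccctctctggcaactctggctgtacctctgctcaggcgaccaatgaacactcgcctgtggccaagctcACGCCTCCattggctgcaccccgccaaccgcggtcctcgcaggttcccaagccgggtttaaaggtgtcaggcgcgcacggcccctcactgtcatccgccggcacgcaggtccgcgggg
Olig2 promoter, chr16:91225261-91225460: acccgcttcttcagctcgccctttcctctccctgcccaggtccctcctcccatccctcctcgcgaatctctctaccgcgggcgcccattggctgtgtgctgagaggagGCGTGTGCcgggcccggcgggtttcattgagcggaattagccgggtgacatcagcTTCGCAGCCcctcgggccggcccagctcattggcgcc
Myrf promoter, chr19:10240701-10240960: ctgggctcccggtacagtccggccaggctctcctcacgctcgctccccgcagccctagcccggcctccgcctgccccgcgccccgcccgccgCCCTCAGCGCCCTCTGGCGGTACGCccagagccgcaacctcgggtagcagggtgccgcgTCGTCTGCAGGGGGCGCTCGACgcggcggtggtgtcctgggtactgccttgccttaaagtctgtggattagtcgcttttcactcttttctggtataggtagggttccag
Olig1 upstream region, chr16:91266041-91266280: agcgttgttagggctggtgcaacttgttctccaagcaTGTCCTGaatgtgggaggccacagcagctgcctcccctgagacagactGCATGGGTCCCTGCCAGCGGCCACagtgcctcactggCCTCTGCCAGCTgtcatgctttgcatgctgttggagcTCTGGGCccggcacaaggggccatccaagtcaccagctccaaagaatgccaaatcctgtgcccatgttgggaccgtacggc
Sox10 downstream region in Polr2f, chr15:79148661-79148860: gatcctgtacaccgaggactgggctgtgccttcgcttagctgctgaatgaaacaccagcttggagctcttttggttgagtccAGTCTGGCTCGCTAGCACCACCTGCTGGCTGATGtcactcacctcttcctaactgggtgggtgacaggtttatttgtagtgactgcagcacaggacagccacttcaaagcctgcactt
Myrf upstream region in Dagla, chr19:10258481-10258700: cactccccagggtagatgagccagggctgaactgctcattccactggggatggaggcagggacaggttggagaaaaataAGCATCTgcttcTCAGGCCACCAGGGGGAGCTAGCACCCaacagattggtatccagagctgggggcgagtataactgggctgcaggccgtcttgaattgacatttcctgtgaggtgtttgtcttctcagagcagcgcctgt
Nkx2-2 coding region, chr2:147177781-147178000: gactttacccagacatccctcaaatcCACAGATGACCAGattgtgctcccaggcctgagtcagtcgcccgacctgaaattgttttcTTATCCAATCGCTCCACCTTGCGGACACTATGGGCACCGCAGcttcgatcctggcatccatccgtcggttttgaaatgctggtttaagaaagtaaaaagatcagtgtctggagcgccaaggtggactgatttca
Nkx6-2 upstream region in Cfap46, chr7:139616261-139616460: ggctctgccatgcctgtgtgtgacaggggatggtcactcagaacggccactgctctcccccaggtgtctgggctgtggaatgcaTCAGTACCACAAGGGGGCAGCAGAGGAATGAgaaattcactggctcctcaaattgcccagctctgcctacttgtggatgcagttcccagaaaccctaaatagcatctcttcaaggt
Zfp488 downstream region, chr14:33920821-33921060: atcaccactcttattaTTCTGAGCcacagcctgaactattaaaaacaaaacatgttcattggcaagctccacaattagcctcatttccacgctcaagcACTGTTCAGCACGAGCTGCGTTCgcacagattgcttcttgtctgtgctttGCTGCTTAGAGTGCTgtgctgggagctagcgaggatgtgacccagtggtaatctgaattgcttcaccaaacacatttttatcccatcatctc

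Promoters of 5 of the 7 genes were accessible in replicate 1 and of 3 in replicate 2, and every accessible promoter had a value below the median of accessible promoters. A promoter peak is a peak within 1 kb of a start site of a protein-coding transcript, and its value is the signal deposited by the authors, on a scale that is not stated. Olig1 had 1.56 in replicate 1 and 1.33 in replicate 2, a mean of 1.44 ± 0.159 (SD, n = 2). Olig2 had 1.64 and 0.753, a mean of 1.20 ± 0.624 (SD, n = 2). Myrf had 1.17 and 1.92, a mean of 1.54 ± 0.532 (SD, n = 2). These 3 had a peak there in each library, which 59.0% of all protein-coding genes also had. Sox10 had a promoter peak of 0.849 and Nkx6-2 of 0.699 in replicate 1, and neither had one in replicate 2. Nkx2-2 and Zfp488 had no promoter peak in either library.

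The share of all protein-coding genes with a promoter peak was 63.4% in replicate 1 and 60.4% in replicate 2, and 4.41% of genes had one in replicate 1 only, as Sox10 and Nkx6-2 did. That share is over promoters of any value, whereas these 2 had 0.849 and 0.699. Of all replicate 1 peaks from 0.5 to 1, at promoters or not, only 38.7% were overlapped by a replicate 2 peak. Over all genes with a promoter peak the median value was 3.10 in replicate 1 and 2.78 in replicate 2. In replicate 1 the promoters of Olig2, Olig1, Myrf, Sox10 and Nkx6-2 stood at percentiles 28.9, 27.5, 20.5, 13.8 and 10.3 of accessible promoters. In replicate 2 Myrf stood at percentile 33.6, Olig1 at 21 and Olig2 at 7.61. The order of the genes was thus not the same in the libraries: Olig2 led in replicate 1 and Myrf in replicate 2.

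**Figure D1:**
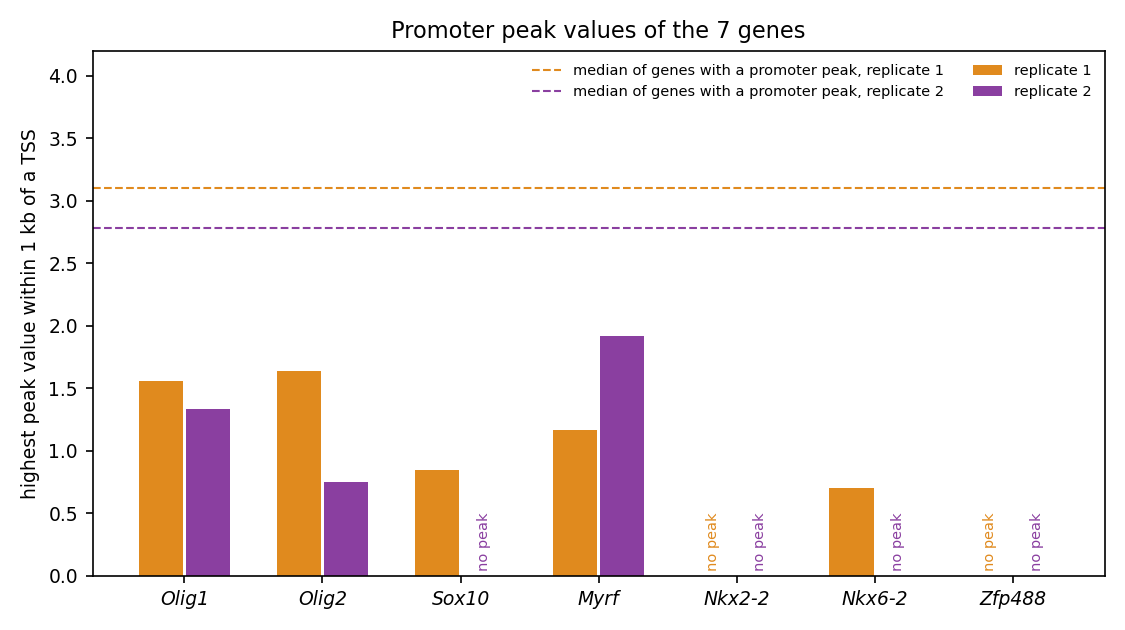
Highest deposited peak value (vertical axis, authors' scale) within 1 kb of a start site of each of the 7 genes, with 1 bar per library. Dashed lines give the median over all genes with a promoter peak, 3.10 in replicate 1 and 2.78 in replicate 2, and every bar lies below them.

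The libraries moved apart at Olig2 and Myrf in opposite directions. The log2 ratio of replicate 1 to replicate 2 was 0.23 at Olig1, 1.12 at Olig2 and -0.72 at Myrf. Over the 12895 genes with a promoter peak in both libraries its median was 0.30, with quartiles at -0.02 and 0.60. Olig2 stood at percentile 97.7 of these ratios and Myrf at 2.17, so both lay outside the middle of the distribution while Olig1, at percentile 43.2, lay inside it. With the shorter of the deposited peak lists, 5 of the 7 promoters held a peak in replicate 1 and only Olig1 and Myrf in replicate 2. Those 2 held one in both, against 53.2% of all genes. At least 1 footprint within 1 kb of a start site, not always the same one, was listed in each library for 3 of the 7 genes, Olig1, Olig2 and Myrf, against 56.0% of all genes. The footprints of the libraries overlapped at Myrf. At Olig1 they lay at different sites of the promoter region, and at Olig2 the replicate 1 footprint lay in a separate region with no replicate 2 peak.

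Olig1 and Olig2 lie on the same strand, Olig2 at chr16:91225457-91228677 and Olig1 at chr16:91269772-91271933, with no other protein-coding gene in their windows. Of 18 regions in the joint window, 9 were shared, 7 were in replicate 1 only and 2 in replicate 2 only. The strongest shared region by mean value, intergenic and 3.61 kb upstream of Olig1, had 1.98 in replicate 1 and 1.68 in replicate 2, above the Olig1 promoter in both libraries. It held 3 footprints in replicate 1 and 1 in replicate 2, an E-box of the form CAGCTG and the SOX letters ACAANG. Both sets of letters are common. In 300 bp around the middle, they were in 25.8% and 47.0% of all shared regions outside promoters.

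In the joint window 7 of 9 shared regions were higher in replicate 1, and over the genome 67.3% of shared regions were. A region 44.7 kb downstream of the Olig1 start, at chr16:91314241-91314720 in an intron of the noncoding gene Gm15966, had 2.17 in replicate 1 and 0.712 in replicate 2. A region 34.5 kb downstream, in the same noncoding gene, had 1.13 and 0.908, and it held 5 and 3 footprints. A region 33.4 kb upstream of Olig2, at chr16:91191901-91192140, had 1.15 and 0.743. The other way round were a region 34.0 kb upstream of Olig2, with 0.478 and 0.578, and one nearer to the gene. This lay 2.87 kb upstream of Olig2, in an exon of the noncoding gene Gm49614, and had 0.539 and 0.908. The strongest region with no partner lay 6.71 kb upstream of Olig1 at chr16:91262881-91263240, with 1.24 in replicate 1. No base of it was listed in replicate 2 at an FDR (false discovery rate) under 0.05. In replicate 2 the strongest region with no partner was a weak one in the Gm15966 intron, with 0.485. All 103 bases of that region were listed in replicate 1 at an FDR under 0.05, without a peak there.

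**Figure D2:**
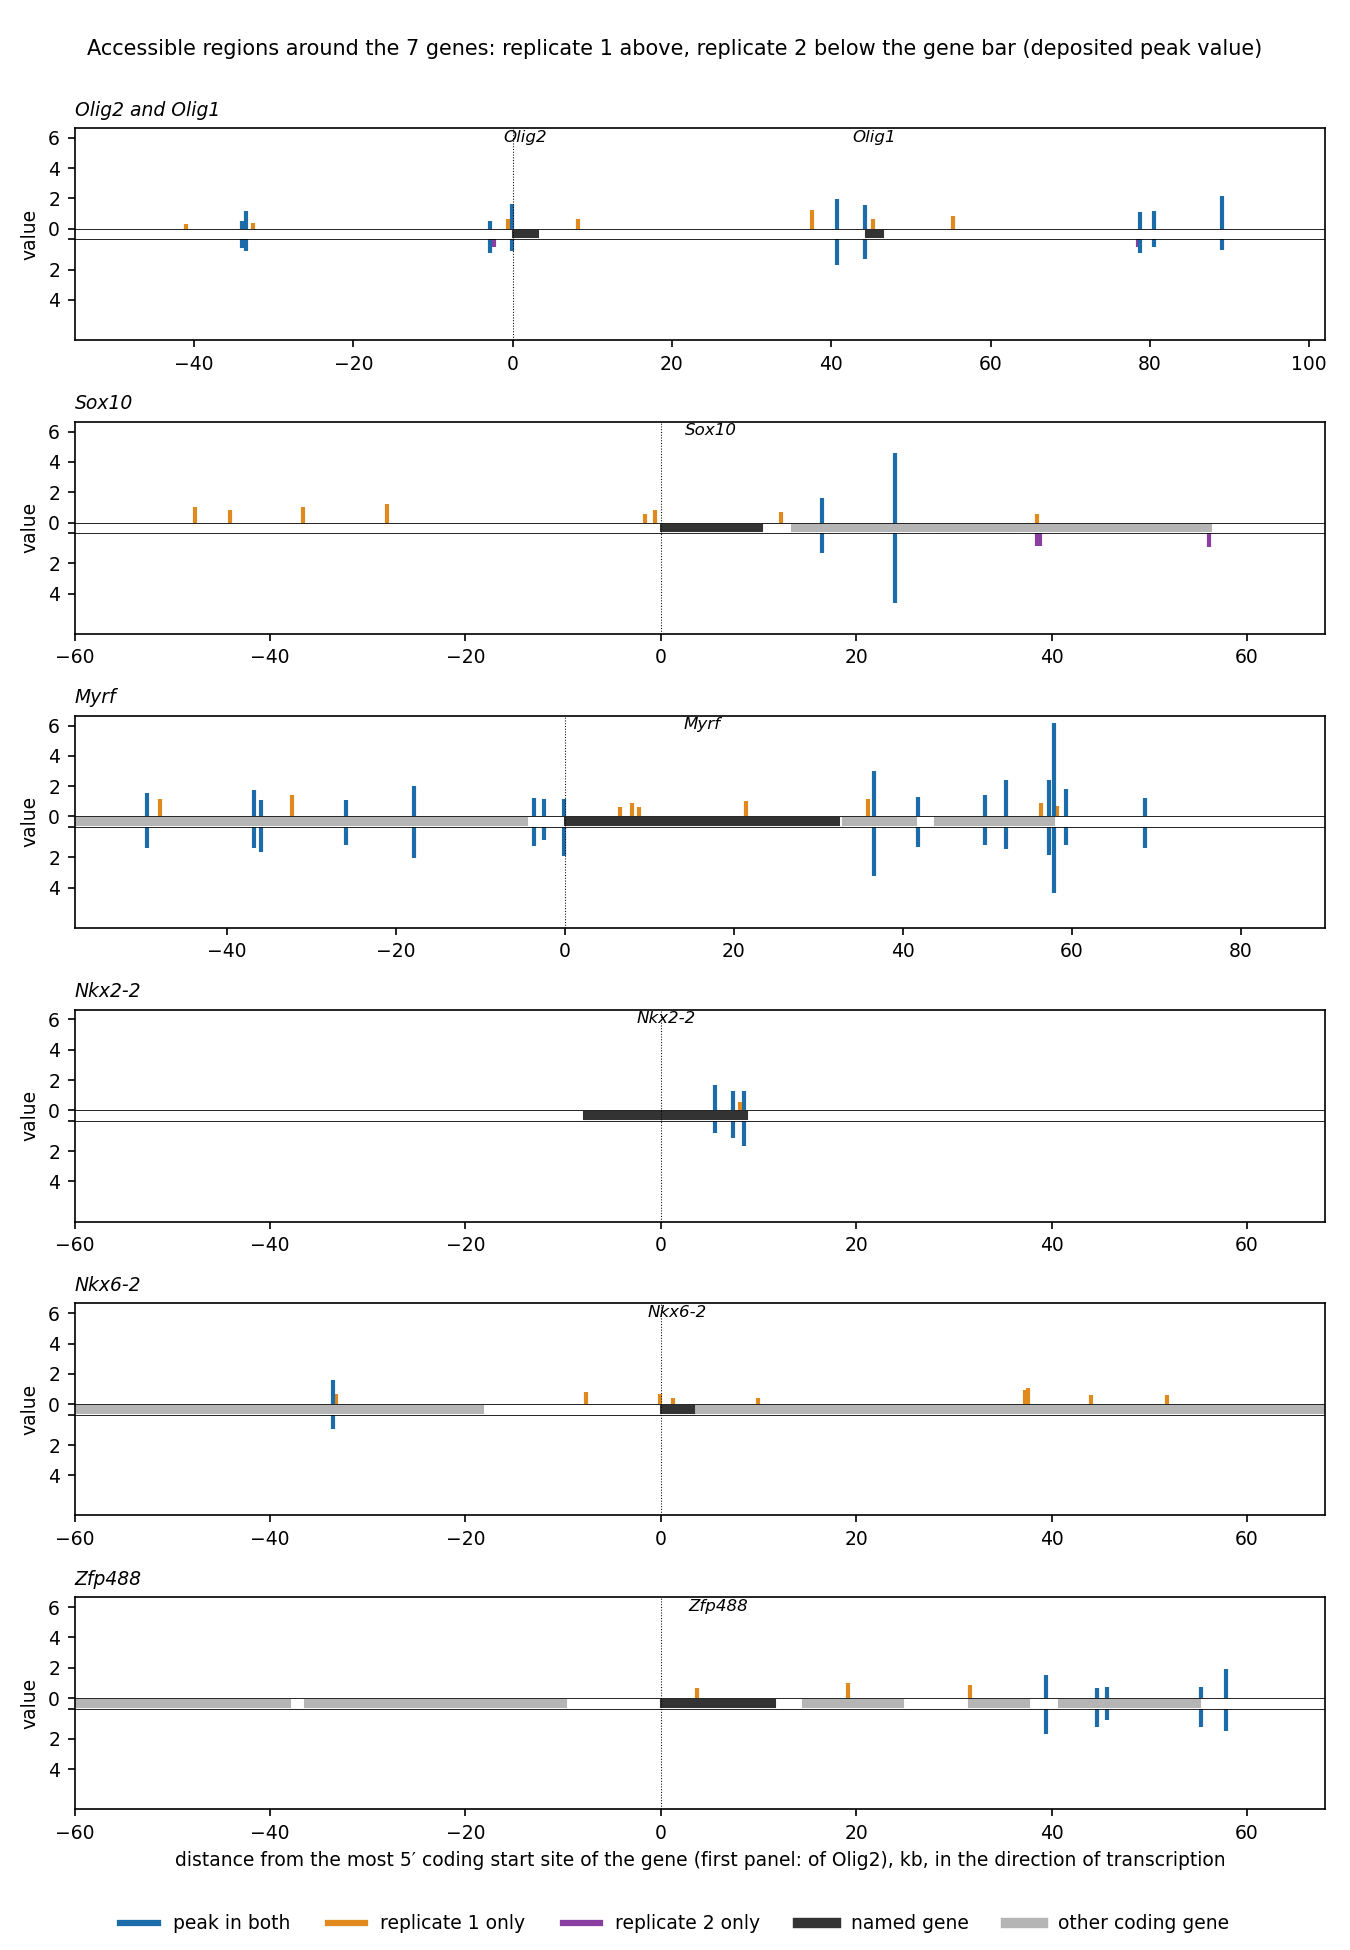
Regions in the windows of the 7 genes by distance from the most 5′ coding start site (horizontal axis, kb, in the direction of transcription). Bar height is the deposited peak value, replicate 1 above and replicate 2 below the gene bar, and colours give presence in both libraries or in 1. The side of Sox10 before its start carries 6 bars in replicate 1 and 0 in replicate 2, and Nkx6-2 has 1 shared region.

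Sox10, at chr15:79154908-79165240 on the reverse strand, had accessible regions on both sides, and none of those upstream was found in replicate 2. Upstream of its start were 6 regions in replicate 1, with values from 0.593 to 1.24. The promoter region at chr15:79165667-79165920, 0.554 kb upstream, had 0.849 and held 4 footprints. A start of the noncoding gene Gm10863 lay closer to it, at 248 bp. The strongest of the 6, 28.0 kb upstream in an intron of Gm10863, had 1.24 and 3 footprints. Others lay 1.66, 36.7, 44.1 and 47.7 kb upstream, with 0.593, 1.05, 0.831 and 0.999. The one at 44.1 kb lay 10 bp from a Gm10863 start. All 6 lay outside the replicate 2 peak list, and no base of any of them was listed there at an FDR under 0.05. Over the genome, 8.91% of the regions in replicate 1 only had at least 1 such base listed in replicate 2. Over all 7 windows it was 5 of 37.

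Downstream of the Sox10 start most regions lay at neighbouring genes, and the intergenic one 11.5 kb past it had 0.716 in replicate 1 only. The promoter shared by 1700088E04Rik and Polr2f, which encodes an RNA polymerase subunit, had 4.62 in replicate 1 and 4.61 in replicate 2. The printed region in an intron of Polr2f, 15.7 kb beyond the Sox10 start, had 1.65 and 1.30. Those 2 were the shared regions of the window. In replicate 2 only, the promoter of Micall1 had 0.929 and 2 intronic regions of Micall1 had 0.815 and 0.877. Of the 4 regions whose nearest protein-coding start was that of Sox10, a grouping chosen after the values were seen, 0 were shared, against 42.0% of all regions, of any value. The 4 regions had 0.593 to 1.24 in replicate 1. Of all replicate 1 peaks, 38.7% from 0.5 to 1 and 79.0% from 1 to 2 had a partner.

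Myrf, at chr19:10208272-10240748 on the reverse strand, had the densest window, with 25 regions, of which 16 were shared and 9 were in replicate 1 only. Its window held 18.9 peaks per 100 kb in replicate 1 and 12.1 in replicate 2, at percentiles 98.2 and 95 of the windows of all genes. The strongest regions lay at its neighbours. The promoter of Fads1, a fatty acid desaturase, had 6.20 in replicate 1 and 4.33 in replicate 2, and the shared promoter of Fen1 and Tmem258 had 3.02 and 3.25. Outside promoters, the strongest shared regions lay in introns of Dagla, which makes an endocannabinoid, and of Fads1. The Dagla region printed above, 17.8 kb upstream of Myrf, had 2.03 in both libraries. A Fads1 intron at chr19:10188334-10188740 had 2.43 and 1.42, and a second Dagla intron at chr19:10277421-10277682 had 1.76 and 1.41.

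The regions just upstream of the most 5′ Myrf start were present in both libraries and the 4 in its introns were in replicate 1 only. The regions 2.40 and 3.62 kb upstream had 1.18 and 1.22 in replicate 1, and 0.856 and 1.26 in replicate 2. Inside the gene body, 4 intronic regions had 1.03, 0.902, 0.619 and 0.619 in replicate 1, and none had a peak in replicate 2. The first of these lay 1.76 kb from another Myrf start and had 21 bases listed in replicate 2. The strongest region of the window with no partner, in a Dagla intron 32.3 kb upstream, had 1.40 in replicate 1. No region of this window was found in replicate 2 only.

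Nkx2-2, at chr2:147177546-147194243 on the reverse strand, was accessible in the 3′ part of its gene body and not at a promoter. All 4 regions of its window lay there, and 3 were shared. The strongest by mean value, printed above, overlapped a coding exon 8.21 kb past the nearest start and had 1.26 in replicate 1 and 1.66 in replicate 2. An intronic region 5.28 kb past it had 1.65 and 0.805, and another 7.13 kb past it had 1.25 and 1.11. The region in replicate 1 only had 0.531. With 3.43 and 2.57 peaks per 100 kb, its window stood at percentiles 21.8 and 29.7 of all genes.

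Nkx6-2, at chr7:139579376-139582797 on the reverse strand, had 10 regions in its window, 9 of them in replicate 1 only. Of all regions of the genome, 49.6% were in replicate 1 only. Grouped by nearest protein-coding start in the same way as for Sox10, 0 of 8 regions of Nkx6-2 were shared, against 42.0% of all regions, of any value. The 8 regions had 0.433 to 1.06 in replicate 1. Of all replicate 1 peaks, 14.5% under 0.5, 38.7% from 0.5 to 1 and 79.0% from 1 to 2 had a partner. In that grouping 5 of 9 regions were shared for Olig1, 4 of 9 for Olig2 and 5 of 9 for Myrf. For Nkx2-2 it was 3 of 4 and for Zfp488 0 of 1. The promoter region, 0.080 kb from the start, had 0.699 in replicate 1. A region 7.69 kb upstream had 0.822 and 4 footprints. A region 37.6 kb downstream, at chr7:139545021-139545340 in an intron of Inpp5a, an inositol phosphate phosphatase, had the highest value of these, 1.06. It had 4 bases listed in replicate 2 and no peak there. The shared region, in a coding exon of Cfap46, a cilia gene, had 1.61 and 0.949. Peak density in the window was at percentile 69.4 of all genes in replicate 1 and at 16.5 in replicate 2.

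Zfp488, at chr14:33967070-33978764 on the reverse strand, had 1 region nearest to its own start, in an intron 3.74 kb past its start, with 0.646 in replicate 1 and no peak in replicate 2. The 5 shared regions of its window lay 39.4 to 57.8 kb downstream, in or beside Gdf10 and Gdf2, growth factors of the TGF-beta family. The strongest had 1.88 in replicate 1 and 1.51 in replicate 2. The next, at chr14:33939221-33939440, had 1.49 and 1.68, and a Gdf10 intron at chr14:33934001-33934180 had 0.690 and 1.21. The strongest with no partner, in an intron of Rbp3, had 0.964.

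Over all windows, peaks with higher values more often had a partner in the other library. Of 76 peaks in replicate 1, 39 (51.3%) had a partner in replicate 2, against 46.6% of all replicate 1 peaks, and outside promoters it was 31 of 61 (50.8%) against 39.8%. Of 42 peaks in replicate 2, 37 (88.1%) had a partner, against 83.4% of all, and outside promoters 29 of 33 (87.9%) against 83.2%. Replicate 1 had 129779 peaks in all and replicate 2 had 71895. All 7 windows held at least 1 shared region outside promoters, which was so of 78.8% of all genes. Among the 36 shared regions, 22 were higher in replicate 1, against 67.3% of all shared regions, and outside promoters it was 17 of 28 against 69.6%. Of the 5 regions in replicate 2 only, 2 had a base listed in replicate 1, against 20.5% of such regions in all.

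**Figure D3:**
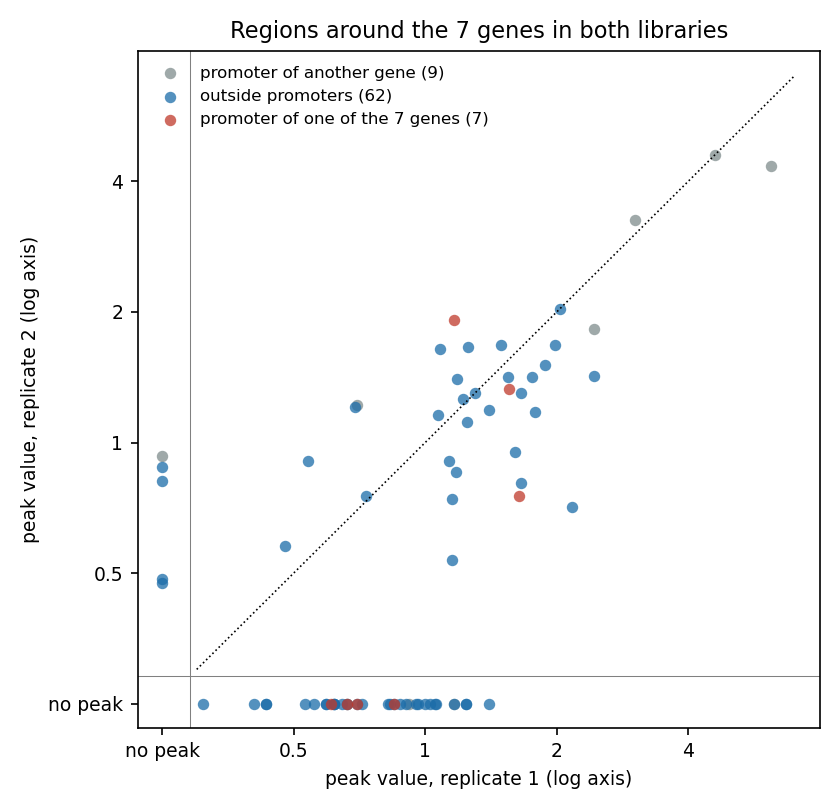
Deposited peak value of the 78 regions in replicate 1 (horizontal, log axis) against replicate 2 (vertical, log axis), with regions that lack a peak in a library placed at the margin marked no peak. The dotted line marks equal values. Of the regions, 37 lie along the lower margin and 5 along the left one.

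Split by value, the peaks near these genes with 0.5 to 1 in replicate 1 stood farthest below all peaks. Of 31 such peaks 6 had a partner (19.4%), against 38.7% of all replicate 1 peaks of that value. From 1 to 2 it was 25 of 33 (75.8%) against 79.0%, and at 2 and over it was 7 of 7 against 98.3%. Under 0.5 it was 1 of 5 against 14.5%. Regions of all windows were also set apart by their nearest protein-coding start, again after the values were seen. Outside promoters, 14 of 37 regions nearest to 1 of the 7 genes were shared and 14 of 25 nearest to another gene, against 36.5% of all regions outside promoters.

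**Figure D4:**
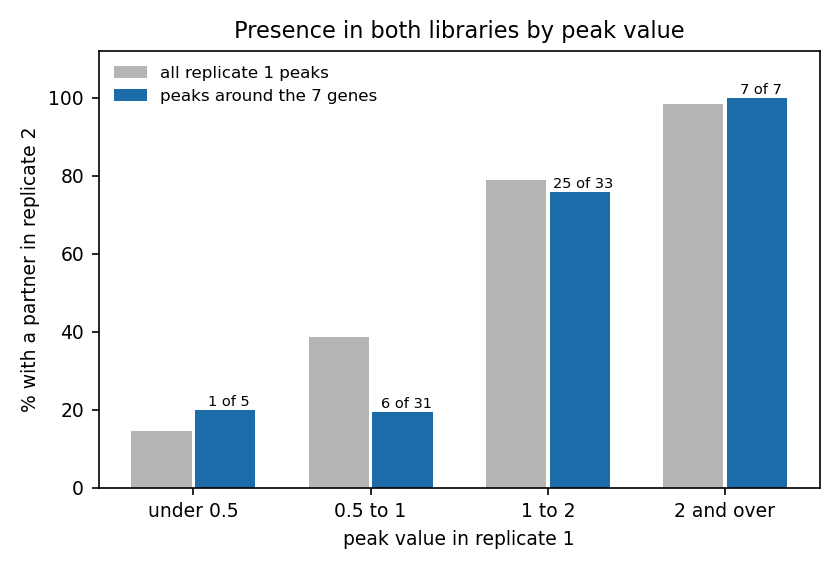
Share of replicate 1 peaks with a partner in replicate 2 (vertical axis, %) by deposited peak value in replicate 1 (horizontal axis), for all peaks and for those in the windows of the 7 genes. Counts above the bars give the peaks around the 7 genes, and from 0.5 to 1 it was 6 of 31.

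Footprints were listed in 60 of 76 replicate 1 peaks (78.9%) and 38 of 42 replicate 2 peaks (90.5%), against 72.9% and 69.9% of all peaks. Of the 36 shared regions, 31 had a footprint in both libraries, against 72.0% of all shared regions. The windows held 137 footprints in replicate 1 and 87 in replicate 2, each with a median width of 9 bp and a range of 7 to 32 bp. Of these, 42 in replicate 1 (30.7%, against 25.8% of all footprints) and 49 in replicate 2 (56.3%, against 52.0%) overlapped one of the other library. Wide footprints of at least 20 bp numbered 21 (15.3%, against 11.3%) and 9 (10.3%, against 8.96%), and 16 and 9 of these overlapped a footprint of the other library. The long capital run of the Myrf upstream region in Dagla is a footprint of 27 bp in replicate 1 and of 25 bp in replicate 2. The capital run of the Sox10 downstream region in Polr2f joins footprints of both libraries, 1 of 29 bp in replicate 1 and 2, of 11 and 21 bp, in replicate 2.

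Letters of DNA-binding motifs were searched on both strands in 300 bp around the middle of each shared region, where motifs may overlap one another. The E-box CANNTG, bound by Olig1 and Olig2 among many factors, was in 27 of 36 regions (75%), against 80.0% of all shared regions. Outside promoters it was in 26 of 28 (92.9%, against 87.3%), so the direction turned. SOX letters ACAANG were in 17 (47.2%, against 41.7%), and outside promoters in 12 of 28 (42.9%, against 47.0%), so the direction turned. The MYRF letters CTGGCAC were in 1 (2.78%, against 8.43%), and the NKX2 letters CACTTNA were in 1 (2.78%, against 11.7%). CTCF, which anchors chromatin loops, has the letters CCACNAGGG, and these were in 4 (11.1%, against 3.30%). The printed regions in Dagla and Cfap46 were among the 4, with the letters inside a replicate 1 footprint. In 30 bp around footprint middles, SOX letters were in 9 of 137 footprints in replicate 1 (6.57%, against 4.04%) and 7 of 87 in replicate 2 (8.05%, against 3.51%). Several of these are the same sites in both libraries and some are neighbouring footprints, so the shares are not independent of each other. The E-box was in 26 (19.0%, against 20.3%) and 14 (16.1%, against 16.9%), and the NKX2 letters were in 0 in each library (against 0.862% and 0.685%). CTCF letters were in 4 (2.92%, against 0.742%) and 2 (2.30%, against 1.02%). The SP/KLF letters GGGCGG were in 3 (2.19%, against 6.67%) and 3 (3.45%, against 9.46%). AP-1 letters TGANTCA were in 3 regions (8.33%, against 10.6%), and the CRE and NFI letters were in 0 of 36, against 1.25% and 0.0838%. Most of these letters are short and common, and their presence is a description of the sequence only.

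A list of 26 other regulators of the lineage, many of them used by other cell types too, had accessible promoters at most members. In replicate 1, 25 of the 26 had a promoter peak, against 63.4% of all genes. In replicate 2, 22 did, all 22 also in replicate 1, against 60.4% of all genes. The chromatin remodeller gene Chd7 had 1.11 in replicate 1 and 1.38 in replicate 2, and its relative Chd8 had 8.50 and 6.25. Hdac1, a histone deacetylase, had 5.75 and 3.85. Nkx6-1, Prrx1 and Sox5 had a promoter peak in replicate 1 only, and Sox17 had none, these 4 being named after their values were seen.

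Cell type markers differed between the libraries beside these results. Among 12 myelin genes, 11 promoters were accessible in replicate 1 and 4 in replicate 2. Of its first members in alphabetical order, Aspa had 0.363 in replicate 1 and Ermn 0.858, both with none in replicate 2; Cldn11, a tight junction protein of myelin, had 0.548 and 0.578, and Cnp, a myelin enzyme, 1.46 and 1.08. Of 8 oligodendrocyte precursor genes it was 6 and 5, with C1ql1 at 1.08 and 0.929, Lhfpl3 at 0.876 and 0.856, Gpr17 in replicate 1 only at 0.610, and Cspg4 with none. The summed promoter value of the 7 factors was 5.91 in replicate 1 and 4.00 in replicate 2, of the myelin list 8.55 and 3.22, and of the precursor list 8.52 and 5.99. A promoter without a peak adds 0 to such a sum, and 7 of 12 myelin promoters had a peak in replicate 1 only, against 4.41% of all genes. That share is over promoters of any value, whereas these 7 had only 0.363 to 0.858. Of all replicate 1 peaks, at promoters or not, 14.5% under 0.5 and 38.7% from 0.5 to 1 had a partner in replicate 2. The 4 myelin promoters with a peak in both had a median log2 ratio of 0.18, with 2 higher in each library. That median was 0.22 in the precursor list, 0.55 in the excitatory neuron list, 0.79 in the astrocyte list and 0.30 over all genes. The excitatory neuron list was accessible at all 8 promoters in each library (summed value 26.0 and 17.2), and 7 and 5 of 8 astrocyte genes did (9.90 and 5.57). In the microglia list 5 of 8 promoters were accessible in replicate 1 and 0 of 8 in replicate 2 (3.02 and 0), and in the endothelial list 3 and 0 of 8 (1.37 and 0). The part of these cell types in the difference between the libraries at the 7 genes was not tested.

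**Figure D5:**
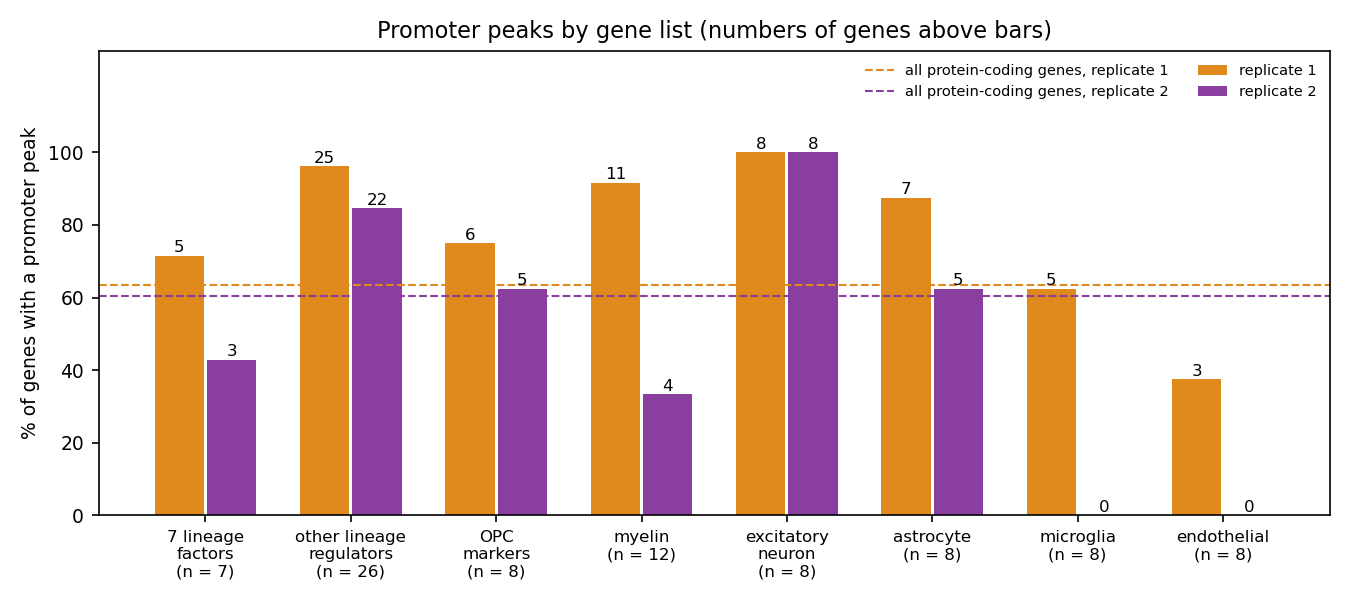
Share of the genes of each list with a promoter peak (vertical axis, %) in replicate 1 and replicate 2, with the number of genes above each bar. Dashed lines give all protein-coding genes, 63.4% and 60.4%, and the myelin list goes from 11 genes in replicate 1 to 4 in replicate 2.

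Genes with promoter values most like those of a member were found by the summed absolute log2 difference over the 2 libraries, for the 3 members with a promoter peak in both. For Olig1 it was Vwce, with the same 1.56 and 1.33 and a difference of 0, and 867 genes lay within 0.5. For Olig2 it was Dpyd, with 1.62 and 0.764 and a difference of 0.0353, and 108 genes lay within 0.5. For Myrf it was St6gal2, with 1.17 and 1.97 and a difference of 0.0383, and 349 genes lay within 0.5.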

How the data were processed

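DNase-seq was done on 2 libraries of 1 group. Each has a longer and a shorter list of peaks, 1 of footprints and 1 of single bases, which the authors deposited for build mm10 (GRCm38), per the labels. Names of the aligner and callers were not given in the sources used here. Every list belongs to 1 library. The peak value (column 7 of the longer list) is a signal deposited by the authors: all distinct values below 1 were whole multiples of 0.00884 in replicate 1 and 0.0103 in replicate 2, which would stand for 113 M and 96.9 M tags if it is per M tags; that scale is not stated, and ratios between libraries rest on it. The deposited base lists give FDR values (read as q-values) and hold only bases under 0.05. Every line of the deposited footprint lists has a score of 0.01, which was not used.

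An overlap of 1 bp made peaks partners. Windows, start sites and classes came from GENCODE M21, and 0 peaks lay past a chromosome end. Percentiles are over all protein-coding genes, or those with a promoter peak. Named regions were, per window, the promoter region, the 3 strongest shared regions outside promoters and the strongest without a partner; others were named to complete a window. Of other lists, up to 4 genes each were named in alphabetical order, and others after their values were seen. The order takes 1 gene that is not reported here. The 7 genes, the gene lists and the motifs were chosen with earlier results of these data known. Of the sequence motifs, 13 came from the design and 1 looser CTCF form was added after seeing the data. Results were recomputed with the shorter lists, peaks cut to equal numbers, 50% reciprocal overlap, other promoter windows and flanks, all transcripts, whole footprints and without either replicate. The scripts were tested on simulated peaks. Software was pysam 0.24.0, matplotlib 3.10.9, SciPy 1.17.1, NumPy 2.4.6 and pandas 2.3.3 under Python 3.11.15.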

Additional observations from a re-analysis of the deposited data

How the results depend on the processing

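With other peak lists, promoter windows and transcripts, the mean promoter values of Olig1 and Myrf moved by no more than the spread between replicates. So did that of Olig2 wherever it had a peak in both libraries. These settings nearly always pick the same deposited peak, so the means could hardly move and this tells little about stability. Only Myrf changed, from 1.543 to 1.548 with the promoter window of 2.5 kb. With the shorter lists Olig2 had no replicate 2 peak, so no mean could be compared. Leaving out either replicate moves such a mean by less than the SD by construction, so it tells nothing about stability. The number of the 7 promoters accessible in both libraries was 3, 2 with the shorter peak lists, and 3 to 5 with a replicate left out. Counts over the windows scale with the flank by construction. With flanks of 10 kb the windows held 34 replicate 1 peaks, 15 replicate 2 peaks, 34 regions, 13 shared regions, and 51 and 23 footprints in peaks; with 100 kb these were 120, 64, 125, 55, 199 and 116. The shorter peak lists hold 76841 peaks in replicate 1 and 38710 in replicate 2, against 129779 and 71895 in the longer ones. With them replicate 2 had 24 peaks and 44 footprints in the windows, and 21 regions were shared. The share of replicate 1 window peaks with a partner was then 36.8%. No share over all peaks of the shorter lists is set beside it, and the cause was not tested. The median log2 ratio of replicate 1 to replicate 2 over promoters in both was 0.23, and -0.25 with the shorter lists, where Olig2 has no replicate 2 peak. Leaving out a replicate left 42 to 76 regions and a mean of 76 to 124 footprints in peaks, against 100 over both. A looser CTCF form, with free positions and chosen after seeing the data, was in 17 of 36 shared regions (47.2%, against 35.0% of all) in place of 4. No paired analysis was possible because there is 1 group. Depth is not stated, so absence of a peak is a statement about the deposited lists.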
